A study of Mus musculus with 55 samples.

Results

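The genes described here are 10 genes of MHC class I antigen presentation, of 47937 genes counted in bulk RNA-seq of mouse pancreatic islets. They were chosen by name and not by a threshold on their values, though with earlier results of these data known. They are the heavy chains H2-K1 and H2-D1, the light chain B2m, the peptide transporter subunits Tap1 and Tap2, the loading factor Tapbp, the immunoproteasome subunits Psmb8, Psmb9 and Psmb10, and the transactivator Nlrc5. All 10 had reads in each of the 16 libraries and all 10 passed the filter on low counts. The libraries came from whole islets of male C57B6/J mice, hand-picked after collagenase digestion and kept in culture medium. Wild-type (WT) islets gave 3 libraries at 8 weeks of age and 3 at 25 weeks, heterozygous (HET) islets 3 and 2, and Eed -/- islets (βEedKO) 3 and 2. Eed is a core subunit of Polycomb repressive complex PRC2, and in βEedKO mice the floxed gene is deleted by RIP-cre, a Cre recombinase driven by the insulin promoter and so active in β cells. Other islet cells therefore keep Eed, and the sources used here do not say whether the WT or HET mice carried Cre. Each library held islets of 1 to 2 animals, except the 25-week βEedKO libraries, which each pooled at least 4.

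Class I molecules show peptides from inside the cell to CD8 T cells. The proteasome cuts proteins into peptides, and in the immunoproteasome Psmb8, Psmb9 and Psmb10 take the places of the constitutive catalytic subunits. The Tap1 and Tap2 heterodimer pumps the peptides into the endoplasmic reticulum, where tapasin, the product of Tapbp, holds the transporter next to empty class I molecules made of a heavy chain and β2-microglobulin. Most of these genes are induced by interferons, and Nlrc5 binds their promoters together with RFX, CREB and NF-Y proteins. In islets the pathway is known from autoimmune diabetes, in which β cells display more class I than healthy β cells do.

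On the mouse genome build GRCm38, 7 of the 10 genes lie on chromosome 17, B2m on chromosome 2, and Psmb10 and Nlrc5 on chromosome 8. H2-K1 (ENSMUSG00000061232.15) spans chr17:33996017-34000347 on the minus strand, and H2-D1 (ENSMUSG00000073411.11) spans chr17:35262730-35267499 on the plus strand, with 1262383 bp between their start sites. Tap1 (ENSMUSG00000037321.17, chr17:34187553-34197225) and Psmb9 (ENSMUSG00000096727.2, chr17:34181987-34187764) are transcribed away from each other, and their annotated start sites are 211 bp apart. Psmb8 (ENSMUSG00000024338.14, chr17:34197721-34201454) and Tap2 (ENSMUSG00000024339.12, chr17:34203527-34216321) follow Tap1 on the same strand. Tapbp (ENSMUSG00000024308.14) spans chr17:33915899-33929292. B2m (ENSMUSG00000060802.8) spans chr2:122147686-122153083, Psmb10 (ENSMUSG00000031897.8) chr8:105935735-105938444 and Nlrc5 (ENSMUSG00000074151.12) chr8:94434356-94527272.

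The stretches before the start sites are shown for the heavy chains, B2m and the divergent pair Tap1 and Psmb9, the 5 members with TGACG there. Capitals mark 3 motifs. The first is CCAAT, the box that NF-Y binds, which reads ATTGG where it lies on the opposite strand. The second is TGACG, the core of the site that CREB factors bind. The third, before B2m, is GAAACTGAAA, a match to the core of the interferon-stimulated response element (ISRE). The sequences are from RefSeq (GRCm38.p6) and read 5′ to 3′ on the strand of the gene, for H2-K1 from chr17:34000335-34000438, for H2-D1 from chr17:35262943-35263045, for B2m from chr2:122147537-122147686, and for the stretch between the RefSeq starts of Psmb9 and Tap1, in the direction of Tap1, from chr17:34187331-34187555.
H2-K1: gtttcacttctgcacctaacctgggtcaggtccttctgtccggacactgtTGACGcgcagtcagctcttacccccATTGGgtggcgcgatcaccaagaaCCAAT
H2-D1: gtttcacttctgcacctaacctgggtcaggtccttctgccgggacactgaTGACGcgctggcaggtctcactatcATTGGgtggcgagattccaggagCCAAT
B2m: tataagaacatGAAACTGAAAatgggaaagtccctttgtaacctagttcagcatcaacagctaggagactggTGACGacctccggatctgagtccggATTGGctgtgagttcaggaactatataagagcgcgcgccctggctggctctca
Tap1 and Psmb9: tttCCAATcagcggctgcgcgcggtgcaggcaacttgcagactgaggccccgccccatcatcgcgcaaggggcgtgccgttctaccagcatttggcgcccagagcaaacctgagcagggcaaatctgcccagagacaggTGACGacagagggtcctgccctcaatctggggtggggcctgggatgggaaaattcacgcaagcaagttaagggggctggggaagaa
The last CCAAT shown for H2-K1 lies just after its most upstream RefSeq start. The H2-D1 stretch lies before a RefSeq start that is downstream of the annotated start given above, so it falls inside the annotated span of the gene. The H2-K1, H2-D1 and B2m stretches share the order TGACG, then ATTGG, toward the start.

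Promoter sequence was at hand for 8 of the 10 genes, all but Tap2 and Nlrc5. In the 250 bases before the start, searched on both strands, TGACG was found in 5 of these 8 (H2-K1, H2-D1, B2m, Tap1 and Psmb9), against 17.8% of all 32851 promoter windows of that length. CCAAT was found in 6 of the 8 (the same 5 and Tapbp), against 33.8% of all windows. Tap1 and Psmb9 share 1 TGACG and 1 CCAAT, so neither count is of separate cases. Psmb8 and Psmb10 had neither. The ISRE core (GAAANNGAAA) was found in 1 of the 8, before B2m, against 2.98%. Only this exact pattern was searched, so looser forms of the element were not counted, and its absence elsewhere does not show that a gene lacks one. These matches describe letters in the windows, not sites in use.

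In the deposited segmentation of WT islet chromatin, which gives a state letter to each 200 bp bin and no measured level, 8 of the 10 start sites lay in states A to C, the states of active start sites and their flanks. H2-K1, B2m, Tap1 and Psmb9 started in A, which holds 30.2% of the starts of protein-coding genes, Psmb8 and Nlrc5 in B (13.8%), and H2-D1 and Tapbp in C (1.64%). The H2-D1 start read here is the annotated one, upstream of the RefSeq start used for its sequence. The next bins downstream were in A. Psmb10 started in L, a bivalent state with high H3K4me3 (12.5%), and Tap2 in X, a quiescent state (1.73%). With every annotated transcript start, or with the bins within 1 kb, all 10 genes touched A, B or C. The most common state over the body of Nlrc5 was N, a Polycomb-repressed state, which covered 47.4% of the gene, and its transcript starts lay in B, M (bivalent, high in H3K27me3), N and O. Of the 10 genes, Nlrc5 alone had a Polycomb-repressed state as the most common state of its body.

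Total counts ranged from 4645393 to 22925359 per library. Levels are given as CPM, the usual scaling of a gene's reads to the library's total, with TMM factors for composition. Eed itself, counted over the whole gene and not over the deleted part alone, had 23.9, 33.1 and 31.2 CPM in WT at 8 weeks and 14.9, 13.4 and 14.8 CPM in βEedKO libraries. Among the older libraries, of 25 weeks, Eed had 28.3, 22 and 19.3 CPM in WT and 15.6 and 14.2 CPM in βEedKO, so the βEedKO libraries lay below the WT libraries at both ages. The HET libraries had 16.3 to 20.5 CPM. By edgeR the Eed difference had an adjusted p of 0.0881 at 8 weeks and 0.142 at 25 weeks.

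4 libraries stood apart in a way the groups do not explain: WT replicates 3 and 4 and βEedKO replicates 4 and 5, all of 8 weeks. The summed CPM of 30 interferon-induced genes outside the class I pathway was 5820, 6410, 8430 and 8860 in these 4, and 235 to 535 in the other 12. Ifit1, an antiviral protein that binds foreign RNA, had 1360 and 1390 CPM in the 2 WT libraries, 1960 and 2200 CPM in the βEedKO libraries, and 2.93 to 24.4 CPM elsewhere. Replicate 1 of WT and of βEedKO at 8 weeks and all 3 HET libraries of that age were among the low ones, so the split crosses genotype. Whether the 4 libraries were isolated, cultured or sequenced together is not given in the sources used here. The summed CPM of the 10 class I genes was 1730, 1890, 2670 and 3270 in the 4 libraries and 793 to 1360 in the other 12. Markers of alpha, delta and PP cells, the other endocrine cells of the islet, also separated the 4 libraries, with sums of 19900 to 35700 CPM against 6750 to 18800 CPM, and their part in the class I values was not tested. A plot of the class I and interferon-induced sums per library shows the 4 libraries far from the rest.

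**Figure D1:**
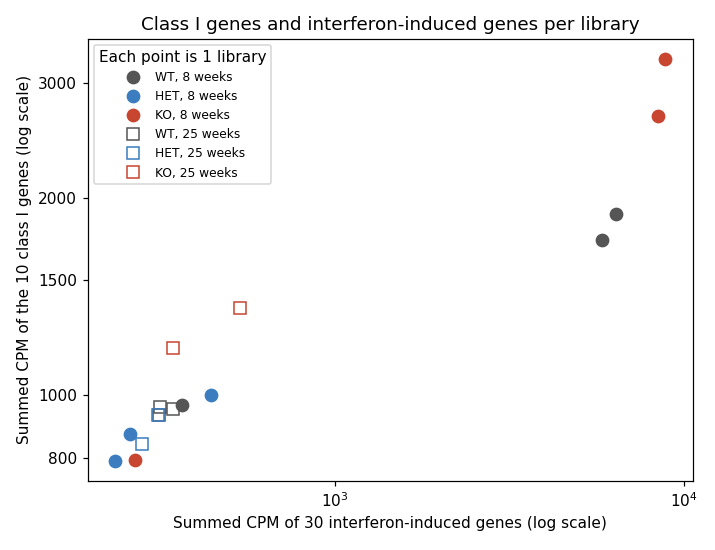
Summed CPM of the 10 class I genes (vertical, log scale) against the summed CPM of 30 interferon-induced genes (horizontal, log scale), 1 point per library, coloured by genotype, filled circles for 8 weeks and open squares for 25 weeks. The 4 libraries that stand apart lie at 5820 to 8860 on the horizontal axis, and the other 12 lie at 235 to 535.

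H2-K1 and H2-D1 encode classical heavy chains, the part of the molecule that binds the peptide. H2-K1 had 326, 477 and 541 CPM in WT at 8 weeks (replicates 1, 3 and 4), 308, 342 and 318 CPM in HET (replicates 1, 2 and 3), and 257, 667 and 859 CPM in βEedKO (replicates 1, 4 and 5). In the 25-week groups it had 291, 344 and 340 CPM in WT (replicates 2, 3 and 4), 345 and 308 CPM in HET (replicates 1 and 2), and 340 and 441 CPM in βEedKO (replicates 2 and 3). Its 4 highest libraries were the 4 that stand apart, and βEedKO replicate 1 at 8 weeks was the lowest of all 16. H2-D1 had 287, 433 and 498 CPM in WT, 255, 313 and 285 CPM in HET, and 279, 653 and 803 CPM in βEedKO at 8 weeks, with the replicates in the same order here and below. In older islets, of 25 weeks, it had 258, 293 and 291 CPM in WT, 283 and 257 CPM in HET, and 361 and 407 CPM in βEedKO. By CPM with TMM factors, both 25-week βEedKO libraries were above all WT and HET libraries of that age for H2-D1. The 2 heavy chains are near-identical in places: 9.63% of the 50-base windows of the H2-K1 transcripts and 12.8% of those of H2-D1 also occur in transcripts of other genes, mostly other class I genes, so some reads of one may have been counted for another or left out.

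B2m encodes β2-microglobulin, the light chain that every classical class I molecule needs. It had 126, 268 and 202 CPM in WT, 46.5, 155 and 74.2 CPM in HET, and 90, 454 and 592 CPM in βEedKO at 8 weeks. For B2m, the 25-week libraries had 184, 85.2 and 91.5 CPM in WT, 103 and 78.5 CPM in HET, and 240 and 237 CPM in βEedKO. B2m was more scattered than the heavy chains in the 12 libraries with low interferon-induced genes, from 46.5 to 240 CPM, and both 25-week βEedKO libraries were above WT replicate 4 of 8 weeks, one of the 4 that stand apart.

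Tap1 and Tap2 form the transporter, and their values show how unequal the members were. Tap1 had 21.6, 106 and 132 CPM in WT, 15.3, 16.5 and 14.5 CPM in HET, and 13.6, 211 and 218 CPM in βEedKO at 8 weeks. Among 25-week libraries Tap1 had 12.9, 16.8 and 19 CPM in WT, 16.5 and 16.6 CPM in HET, and 20.1 and 29.3 CPM in βEedKO. No library outside the 4 reached 30 CPM, and none of the 4 was under 106 CPM. Tap2 had 29.1, 47.3 and 63.4 CPM in WT, 25.9, 28.5 and 25.8 CPM in HET, and 22.1, 83.7 and 96 CPM in βEedKO at 8 weeks. For Tap2 the values at 25 weeks were 26.2, 26.7 and 30.3 CPM in WT, 25.9 and 28.6 CPM in HET, and 25 and 30 CPM in βEedKO. The highest library was 16.9 times the lowest for Tap1 and 4.34 times for its partner. Of the exonic bases of Tap2, 14.1% overlap the gene Gm15821 and 4.36% the gene Gm20496 on the opposite strand, and whether counting used strand is not stated. Tap1 and Psmb9 overlap each other on opposite strands, by 3.87% of the exonic bases of Tap1 and 5.79% of those of Psmb9.

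Tapbp encodes tapasin. It had 110, 273 and 317 CPM in WT, 99.8, 104 and 114 CPM in HET, and 94.8, 371 and 389 CPM in βEedKO at 8 weeks. The 25-week values of Tapbp were 125, 130 and 131 CPM in WT, 119 and 122 CPM in HET, and 88 and 136 CPM in βEedKO. The 25-week libraries were close to each other for this gene, except βEedKO replicate 2, which was the lowest of all 16. Gm19412 overlaps 24.9% of the exonic bases of Tapbp on the opposite strand, so its values also depend on the strand setting.

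Of the immunoproteasome subunits, Psmb8 had 14, 40.2 and 43.8 CPM in WT, 6.55, 9.09 and 7.99 CPM in HET, and 10.4, 71.8 and 97.6 CPM in βEedKO at 8 weeks. The Psmb8 values at 25 weeks were 15.3, 8.13 and 11 CPM in WT, 11.5 and 7.06 CPM in HET, and 17.1 and 20.3 CPM in βEedKO. Psmb8 thus spread 14.9-fold over the libraries, and its lowest value was in a HET library of 8 weeks. Gm20496 overlaps 14.7% of its exonic bases on the opposite strand. Psmb9, the divergent neighbour of Tap1, had 11.3, 24.7 and 29.7 CPM in WT, 7.17, 9.32 and 8.88 CPM in HET, and 9.92, 42.3 and 56.6 CPM in βEedKO at 8 weeks. Psmb9 at 25 weeks had 13.1, 10.8 and 10.7 CPM in WT, 11.1 and 8.46 CPM in HET, and 12.6 and 10.4 CPM in βEedKO, and the genotypes overlapped. Psmb10 had 37.5, 56.3 and 54.3 CPM in WT, 26.7, 21.3 and 18 CPM in HET, and 18, 93.2 and 137 CPM in βEedKO at 8 weeks. The older libraries, at 25 weeks, gave Psmb10 24.4, 13.8 and 28.2 CPM in WT, 15.3 and 12.9 CPM in HET, and 63.8 and 26.4 CPM in βEedKO. The βEedKO value of 63.8 CPM, in replicate 2, was above both WT libraries that stand apart.

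Nlrc5, a NOD-like receptor family protein that switches on class I genes, was the rarest member. It had 2.41, 5.12 and 8.47 CPM in WT, 2.23, 3.82 and 2.41 CPM in HET, and 1.42, 21.4 and 26.5 CPM in βEedKO at 8 weeks. In 25-week islets Nlrc5 had 1.09, 3.99 and 5.34 CPM in WT, 1.91 and 3.21 CPM in HET, and 8.75 and 27 CPM in βEedKO. These values rest on few reads in some libraries, from 5 reads in WT replicate 2 at 25 weeks to 670 in βEedKO replicate 3. The latter library, with low interferon-induced genes, had as much Nlrc5 as βEedKO replicate 5 at 8 weeks (1.02 times), while B2m was at 0.4 times and Psmb10 at 0.192 times the level there.

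**Figure D2:**
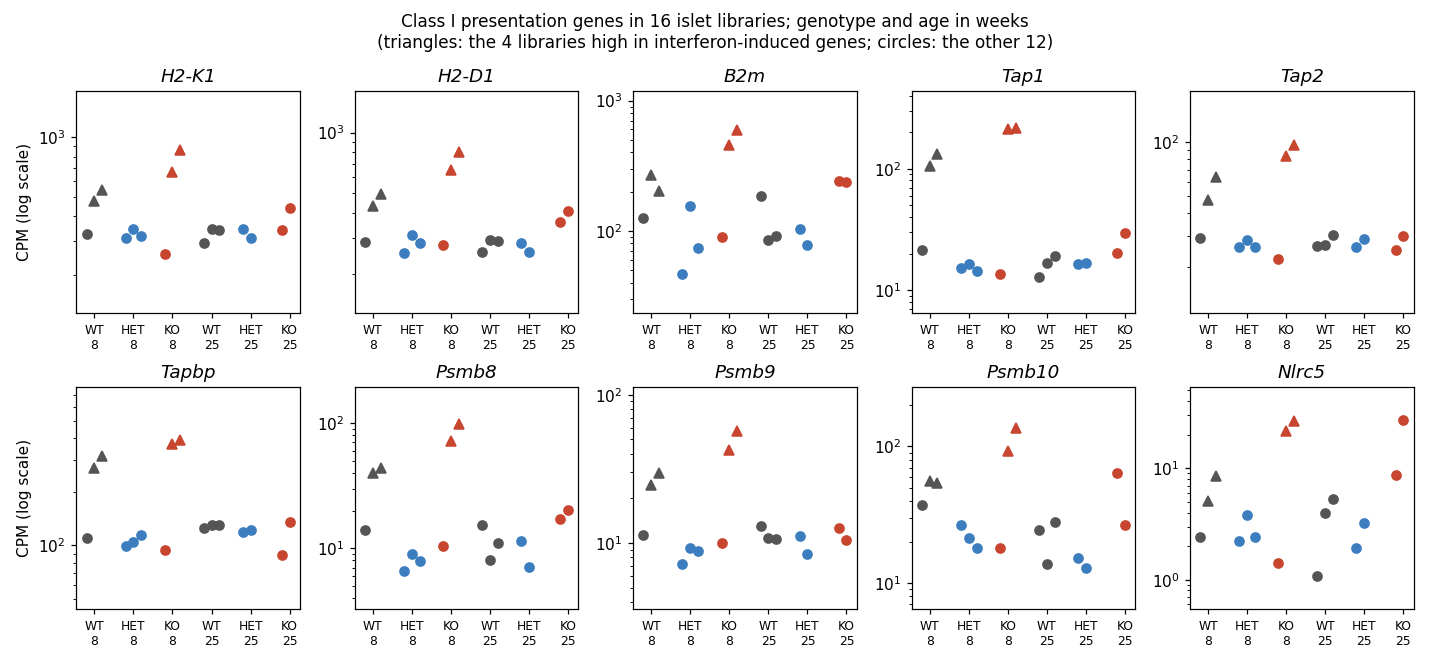
CPM of each member (vertical, log scale, a scale of its own in each panel) in every library of the 6 groups, named by genotype and age in weeks, with replicates side by side in rising number. Triangles are the 4 libraries that stand apart and circles the other 12. Triangles lie above all circles for 7 of the 10 genes, and for B2m, Psmb10 and Nlrc5 at least 1 circle of βEedKO at 25 weeks lies above a triangle. For Nlrc5 a circle of WT at 25 weeks (5.34 CPM) also lies above a triangle (5.12 CPM).

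Levels were compared between genes as CPM per kilobase of merged exons, in WT at 25 weeks, where no library stood apart. B2m was at 139.8 ± 64.3 (SD, n = 3), H2-K1 at 110.5 ± 10 and H2-D1 at 108.8 ± 7.52 CPM per kb, and the libraries of these 3 overlapped. Tapbp followed at 35.5 ± 0.983 and Psmb10 at 13 ± 4.35 CPM per kb, each apart from its neighbours. Tap2 was at 7.34 ± 0.598 CPM per kb. Psmb8 at 3.39 ± 1.06, Psmb9 at 3.15 ± 0.368 and Tap1 at 2.96 ± 0.57 CPM per kb overlapped with each other, and Nlrc5 was lowest at 0.409 ± 0.256 CPM per kb. In WT at 8 weeks, with 2 libraries of the 4, Tap1 at 15.8 ± 10.5 CPM per kb came before Tap2 at 12.3 ± 4.54 and Psmb8 at 9.66 ± 4.81, with overlapping libraries. The order of the levels is for gene models with all exons merged. With the longest transcript as the length, 5 of the 10 genes kept their rank in WT at 8 weeks, and H2-K1 came first.

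The first comparison asked whether loss of Eed changed the class I genes at 8 weeks, an age at which β cell identity genes were not called lower. All 10 genes had a log2 fold change above 0 in βEedKO over WT, with a median of 0.74, but none was called by edgeR's quasi-likelihood test at an adjusted p under 0.05, and 0 had an unadjusted p under 0.05. Of all 18685 genes tested, 0.434% were called (81), 0.428% as higher. With the replicate number as a block, edgeR called 0 of all genes, with 1126 at an unadjusted p under 0.05, and the median of the members was 0.09, with 8 of 10 above 0. Leaving out 1 library moved the median to 0.35 without WT replicate 1, 0.22 without βEedKO replicate 5 and 1.21 without βEedKO replicate 1, all of 8 weeks. The largest estimate was that of Nlrc5, at 1.62 ± 0.91 on the log2 scale (SE, 3 libraries against 3, adjusted p = 0.753 by edgeR). B2m had 0.94 ± 0.59 (adjusted p = 0.794 by edgeR), Psmb8 0.87 ± 0.67, Tap1 0.76 ± 0.83, Psmb10 0.75 ± 0.61 and Psmb9 0.73 ± 0.54. Tap2 had 0.53 ± 0.47, H2-D1 0.51 ± 0.38, H2-K1 0.41 ± 0.40 and Tapbp 0.29 ± 0.52. In no member were all βEedKO libraries above all WT libraries, against 6.54% of all genes, since βEedKO replicate 1 was low.

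The sign at 8 weeks differed between the same-numbered libraries. In replicate 1, where both libraries had low interferon-induced genes, all 10 genes were lower in βEedKO than in WT, with a median log2 ratio of -0.41 and a range from -1.05 (Psmb10) to -0.04 (H2-D1). In replicate 4, where both stood apart, all 10 were higher in βEedKO, with a median of 0.595 and a range from 0.23 (Tapbp) to 1.33 (Nlrc5). The medians over all genes were close to 0 in both pairs, at 0.00 and -0.02, with 50.8% of genes below 0 in replicate 1 and 47.6% above 0 in replicate 4. Each pair is 1 library against 1 and has no test. With the 4 libraries left out, an alternative chosen after seeing the data, the fitted median of the members was -0.40, with 0 of 10 genes above 0. That fit has 1 library on each side at 8 weeks, which is assumed to vary like the other groups.

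Other measures were read beside the class I genes in the WT and βEedKO libraries of 8 weeks. The summed CPM of 4 genes found in all leukocytes (Ptprc, Laptm5, Coro1a and Cd53) was 26.5, 15.5 and 11.5 in WT and 20.1, 37.9 and 50.5 in βEedKO. The 11 macrophage markers summed to 81.2, 107 and 70.3 CPM in WT and to 96.4, 162 and 343 CPM in βEedKO. The interferon-induced genes summed to 365, 5820 and 6410 CPM in WT and to 267, 8430 and 8860 CPM in βEedKO. βEedKO replicates 4 and 5 were thus the highest of these 6 libraries for each of the 3 sums and for the class I genes. In WT, where the class I genes summed to 964, 1730 and 1890 CPM, the leukocyte sum fell from replicate 1 to replicate 4. The WT macrophage sum was lowest in replicate 4. The part of these measures in the class I values was not tested. In whole islets, more cells of a type and more RNA per cell cannot be told apart.

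**Figure D3:**
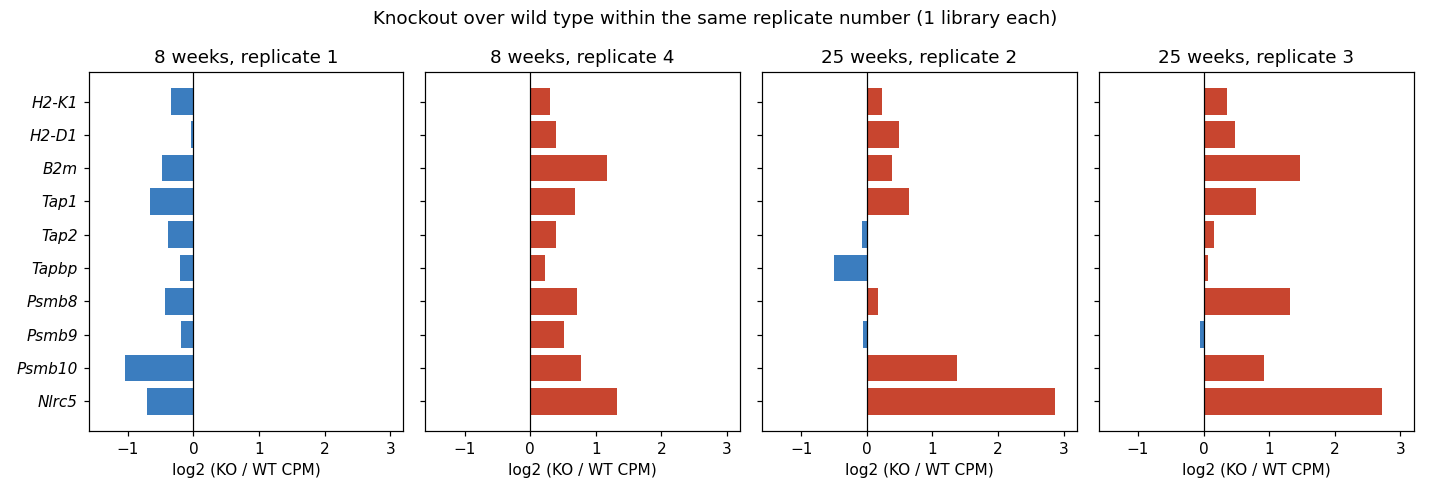
Log2 ratio of CPM in βEedKO over WT within the same replicate number (horizontal) for each of the 10 genes (vertical), with 1 library on each side, red above 0 and blue below. At 8 weeks all 10 bars point left in replicate 1 (median -0.41) and right in replicate 4 (median 0.595). At 25 weeks 7 of 10 point right in replicate 2 and 9 of 10 in replicate 3, against 57.0% and 54.0% of all genes.

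At 25 weeks, when 9 of 10 β cell markers were called lower in βEedKO islets, the class I estimates differed in sign. 7 of the 10 had a log2 fold change above 0 in βEedKO over WT, with a median of 0.47, and 0 of 10 were called, against 6.60% of all genes called and 4.58% called higher. 1 had an unadjusted p under 0.05. That was Nlrc5, with 2.25 ± 1.00 on the log2 scale (3 WT and 2 βEedKO libraries, unadjusted p = 0.0468 and adjusted p = 0.237 by edgeR). With WT and HET libraries pooled as the control, 2649 of all 18828 genes tested were called. Nlrc5 was among them, at 2.50 and an adjusted p of 0.0396 by edgeR. Its lowest adjusted p among the alternatives was 6.32e-06 by edgeR, with library size alone and the replicate block, where 1988 of 18685 genes were called. Its estimate fell to 1.23 without βEedKO replicate 3 of 25 weeks, which leaves 1 βEedKO library at that age. Psmb10 had 0.98 ± 0.68 (adjusted p = 0.473), B2m 0.94 ± 0.65 (0.474 likewise by edgeR), Psmb8 0.67 ± 0.75 and Tap1 0.54 ± 0.93. H2-D1 had 0.40 ± 0.42 and H2-K1 0.21 ± 0.45, while Psmb9 at -0.06 ± 0.62, Tap2 at -0.07 ± 0.52 and Tapbp at -0.26 ± 0.58 were near or below 0. Tap1 and Psmb9, with start sites 211 bp apart, thus had estimates on either side of 0, and the difference between the 2 genes was not tested. For 5 of the 10 (H2-D1, B2m, Tap1, Psmb8 and Nlrc5) both βEedKO libraries were above all 3 WT libraries, against 24.7% of all genes tested. That count depends on the TMM factors, which were 0.76 and 1.50 for the 2 βEedKO libraries and 0.862 to 1.12 for WT. By reads over total count alone, H2-D1 in βEedKO replicate 2 (4748 of 17308262) was below WT replicate 3 (3891 of 11854558). The counts of called genes use a spread shared with the 8-week libraries, in which the members were scattered, but with the 25-week libraries alone, an alternative chosen after seeing the data, 0 of 10 were called as well.

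**Figure D4:**
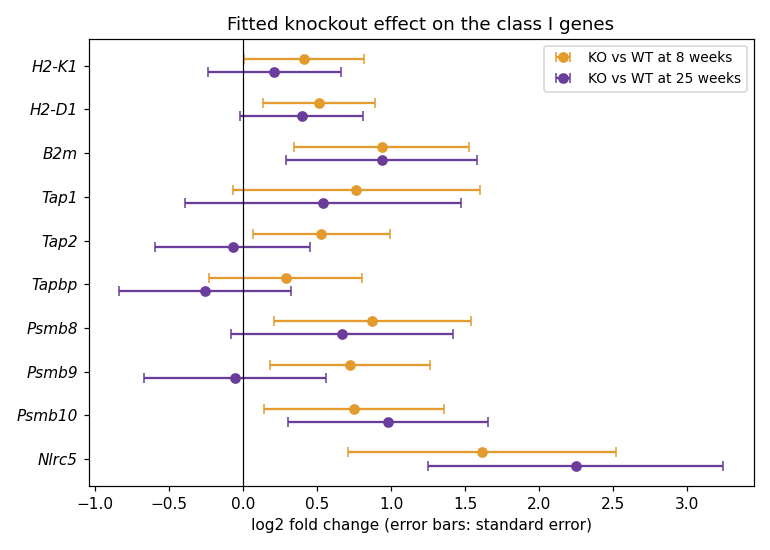
Fitted log2 fold change of βEedKO over WT (horizontal) for each of the 10 genes (vertical) at 8 weeks and at 25 weeks, with error bars of 1 standard error. All 10 estimates lie above 0 at 8 weeks and 7 of 10 at 25 weeks, and Nlrc5 has the largest estimate at both ages, 1.62 and 2.25.

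Markers of several other cell types differed in the 25-week βEedKO libraries. The 4 leukocyte genes summed to 110 and 75 CPM there and to 47.3, 23.3 and 22.1 CPM in WT. Ptprc, the pan-leukocyte phosphatase CD45, was the only one of the 4 that was called, with a log2 fold change of 1.90 ± 0.48 (adjusted p = 0.042 by edgeR). The 8 T cell markers summed to 25.3 and 16.9 CPM in βEedKO and 10.7, 2.41 and 1.16 CPM in WT, and the 11 macrophage markers to 514 and 163 against 218, 124 and 105 CPM. None of the T cell or macrophage markers was called, and no marker of the leukocyte or macrophage lists was at 0 in any library. Of the 4 B cell markers 1 (Cd79a) was called lower, at -1.67 ± 0.36 (adjusted p = 0.0215 by edgeR). The other 3 had a fold change above 0, and the median of the 4 was 1.41, so this list went both ways. Acinar markers, digestive enzymes of the exocrine pancreas, summed to 378000 and 11600 CPM in the βEedKO libraries and to 81200, 28800 and 208000 CPM in WT. The highest of these was βEedKO replicate 2, in which Tapbp was lowest and Psmb10 highest of the 25-week libraries. Of 5 duct markers 3 were called higher, as were 2 of 6 stellate and fibroblast markers (Col1a1 and Col1a2) and 1 of 6 alpha, delta and PP cell markers (Irx2). Of the 11 class II genes, which are mostly expressed by professional antigen-presenting cells, all had a fold change above 0 and 2 were called. These were H2-Eb1, a class II β chain, at 1.17 ± 0.30 (adjusted p = 0.0442 by edgeR), and Cd74, the invariant chain, at 1.09 ± 0.28 (adjusted p = 0.0459 by edgeR). H2-Eb1 had 68.5, 44.8 and 41.9 CPM in WT and 123 and 117 CPM in βEedKO. Of the 10 β cell markers, 9 were called lower, among them Ins1, at 47400, 32800 and 26800 CPM in WT and 2140 and 3000 CPM in βEedKO. How much of the class I values came from leukocytes was not tested. WT replicate 2, the WT library with the most leukocyte markers, also had the most B2m of the 25-week WT libraries, and the least Nlrc5.

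The effect of Eed loss was compared between the ages as a difference of the 2 differences. 0 of the 10 genes were called, with 0 at an unadjusted p under 0.05, against 0.198% of all genes called. The median of the members was -0.20 on the log2 scale, but its sign was not stable. It was 0.81 without the 4 libraries that stand apart, 0.39 with the replicate block, 0.14 without WT replicate 1 of 8 weeks and 0.19 without βEedKO replicate 5 of 8 weeks. No difference between the ages was thus detectable for these genes with the libraries at hand.

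Age itself was compared within each genotype. From 8 to 25 weeks in WT, all 10 genes had a log2 fold change below 0, with a median of -0.81, and 0 were called, as were 0% of all genes tested (2 of the members and 1898 genes had an unadjusted p under 0.05, and 139 genes were called by DESeq2). The lowest estimates were those of Tap1, at -2.42 ± 0.88 (adjusted p = 0.489 by edgeR), and Psmb8, at -1.54 ± 0.69. In βEedKO, 9 of 10 were below 0, with a median of -1.14, and 0 were called, against 1.50% of all genes. Tap1 was at -2.64 ± 1.04, Psmb8 at -1.74 ± 0.79, Psmb9 at -1.72 ± 0.64 and Tap2 at -1.35 ± 0.54. The exception was Nlrc5. Without βEedKO replicate 1 of 8 weeks, the one 8-week βEedKO library with low interferon-induced genes, 386 of 18360 genes were called. Among these were Tap1, Tap2 and Psmb9, all lower, with adjusted p of 0.049, 0.0381 and 0.0389 by edgeR. Over all alternatives their adjusted p reached 0.718, 0.792 and 0.931. Without the 4 libraries that stand apart, the median of the members was 0.001 in WT and 0.71 in βEedKO, with 10 of 10 genes above 0 in the latter and none called.

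Heterozygous islets were compared with WT in a fit of all 16 libraries. At 8 weeks all 10 genes had a log2 fold change below 0, with a median of -1.12, and 0 were called, as were 0% of all 18828 genes tested (5 of the members and 2743 genes had an unadjusted p under 0.05). Tap1 was at -2.49 ± 0.77 (adjusted p = 0.24 by edgeR) and Psmb8 at -2.05 ± 0.62 (adjusted p = 0.235 by edgeR). By DESeq2 these 2 genes were called, with adjusted p of 0.0254 and 0.0347, and 407 genes in all. They were also called by edgeR without WT replicate 1 of 8 weeks, while their adjusted p reached 0.906 and 0.867 without the 4 libraries that stand apart. In that last setting the median of the members was -0.27, from 1 WT library against 3. At 25 weeks the median was -0.17, and 0 of the members were called, as were 0% of all genes (0 and 210 at an unadjusted p under 0.05, and 3 genes were called by DESeq2).

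Over the 16 libraries the members varied together. As deviations from the group means of log2 CPM, which leave out genotype and age, the 45 pairs of members had Pearson correlations from 0.593 to 0.989, with a median of 0.908. The 16 points share the 4 libraries that stand apart, on which such values rest, so they describe these libraries and have no test. H2-K1 and H2-D1, which may share reads as described above, were the closest pair (0.989), and Psmb10 and Nlrc5 the most distant (0.593). Each member's correlation with the mean of the other 9 was 0.951 to 0.986, except for Psmb10 (0.781), B2m (0.804) and Nlrc5 (0.83). These are the 3 genes for which a 25-week library, of βEedKO or for Nlrc5 also of WT, was above one of the 4 that stand apart.

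The 8 genes outside the pathway list whose deviations were most like the mean of the members, of 18818 compared over the 16 libraries, were Igtp (r = 0.982), Irf7 (0.979), Daxx (0.973), Mlkl (0.973), Isg15 (0.972), Gbp3 (0.97), Ifi47 (0.968) and Pabpc1 (0.968). Igtp, Ifi47 and Gbp3 are interferon-induced GTPases, Irf7 is a transcription factor of the type I interferon response and Isg15 a ubiquitin-like modifier. Daxx is a histone H3.3 chaperone and Pabpc1 a poly(A)-binding protein.

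The rest of the pathway was read from lists by counts. Of the 8 genes of peptide loading and trimming, 0 were called in any of the 7 comparisons, and 2 had a log2 fold change above 0 in βEedKO over WT at 25 weeks, with a median of -0.24. Their summed level was 3030 to 3620 CPM in the 4 libraries that stand apart and 1130 to 2220 CPM in the others. The 3 most abundant were Pdia3, a disulfide isomerase of the loading complex, and the lectin chaperones Calr and Canx. Pdia3 had 955, 659 and 616 CPM in WT and 393 and 522 CPM in βEedKO at 25 weeks, with a difference that was not called. Of the 14 constitutive proteasome subunits 0 were called, with medians of 0.23 at 8 weeks and 0.13 at 25 weeks in βEedKO over WT. Their sum was 986 to 1510 CPM in the 4 libraries and 581 to 945 CPM in the others, a narrower gap than that of the interferon-induced genes.

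Of the 17 other class I and class I-like heavy chains, 0 were called, and 14 had a fold change above 0 in βEedKO over WT at each age, with medians of 0.37 and 0.21. H2-Q4, a nonclassical heavy chain, had 38.4, 131 and 159 CPM in WT and 42.5, 239 and 290 CPM in βEedKO at 8 weeks, in the pattern of the classical chains, and 48.8 to 83.6 CPM in WT and βEedKO at 25 weeks. H2-Q2 was flatter, at 67.6 to 149 CPM over all 16 libraries. H2-T23, which presents leader peptides to NK cell receptors, had 31.5 to 113 CPM. These genes are near-identical copies of one another in part, so how reads were split between them is uncertain.

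Of 9 interferon receptor and signalling genes and 30 interferon-induced genes, 0 were called in any of the 7 comparisons. The 30 interferon-induced genes had a median log2 fold change of 0.56 in βEedKO over WT at 8 weeks, with 27 above 0, and of 0.52 at 25 weeks, with 26 above 0. In HET against WT at 8 weeks their median was -3.48, and 29 of the 30 had an unadjusted p under 0.05 by edgeR, as had 2743 of all 18828 genes. WT replicates 3 and 4 of that age are among the 4 libraries that stand apart. The sums were 365, 5820 and 6410 CPM in WT and 235, 441 and 259 CPM in HET, so WT replicate 1 lay within the range of HET. Of 8 interferon ligands only Ifnb1, the type I interferon β, passed the filter on low counts. It had 0.0634, 3.49 and 0.953 CPM in WT and 0.142, 3.66 and 6.92 CPM in βEedKO at 8 weeks, and 0 to 4.36 CPM in the other groups. Ifng, the type II interferon made by T and NK cells, was at 0 to 0.451 CPM in all libraries, a level too low for a comparison.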

How the data were processed

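For the 16 bulk islet libraries the authors deposited gene counts with no normalization. Read pairs of 50 bases each had been mapped by TopHat (2.0.13) to GRCm38, and featureCounts of Subread, version 1.5.0-p1, counted them over Gencode M9. Whether strand was used is not stated. Multimapping and overlapping reads are not described for these libraries. The segmentation, made with EpicSeg by the authors, holds a state letter per stretch of 200 bp bins and no score. No count column was left unused (0). Single-cell and ChIP-seq files were not analysed here.

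Tests used edgeR 4.0.16 under R 4.3.3 (TMM factors, filterByExpr by group, quasi-likelihood test, Benjamini-Hochberg over all genes tested). WT and βEedKO libraries were fitted as 4 groups (11 libraries, 18685 genes), and HET was compared with WT in all 16 (18828 genes). DESeq2 1.42.0 was an alternative. Log2 ratios between single libraries used a prior count of 2. Names and positions came from a later Gencode release of the same build, which matched 47224 of 47937 genes. The fit was tested on simulated counts with known changes. Per the study's methods the libraries of a group are biological replicates.

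The members and gene lists were chosen with earlier results of these data known. All 10 members are named, and of each other list the genes called in at least 1 comparison, or the 3 most abundant if none or over 6 were called. Where the text names fewer genes of a list, it is for length.

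Nothing in the sources ties a replicate number to a litter or a batch. The 4 same-numbered pairs of βEedKO and WT libraries deviated together from their group means (correlations 0.163 to 0.457), while libraries of different numbers had correlations from -0.528 to 0.45. The numbers were treated as pairs in a blocked fit, which changed no call of a member with TMM factors. Libraries without a partner add nothing to it. Chi-square per degree of freedom between libraries of a group was 31.03 to 591.6, so none was a repeat deposit.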

Additional observations from a re-analysis of the deposited data

How the results depend on the processing

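Under other scalings, filters, tests, controls and libraries, none of the 10 genes was called in any of the 7 comparisons except as follows. In βEedKO over WT at 25 weeks, 1 gene (Nlrc5) was called with WT and HET pooled as the control, where 2649 of 18828 genes were called. 1 (Nlrc5) was also called with library size alone together with the replicate block, where 1988 of 18685 genes were called. In HET over WT at 8 weeks, 2 (Tap1 and Psmb8) were called by DESeq2, and leaving out 1 library gave 0 to 2, with 2 only without WT replicate 1 of 8 weeks. In βEedKO at 25 over 8 weeks, leaving out 1 library gave 0 to 3, with 3 only without βEedKO replicate 1 of 8 weeks. That fit called 386 of all 18360 genes tested. A library left alone in its group was assumed to vary like the others. With the replicate block, 0 members were called in the 5 comparisons it could be fitted for. A block within each age leaves no contrast between ages, so those were not run. The blocked median of the members was 0.09 at 8 weeks and 0.55 at 25 weeks in βEedKO over WT, and H2-K1 at -0.018 and Psmb10 at -0.12 turned below 0 at 8 weeks.

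Without the 4 libraries that stand apart, chosen after seeing the data, the βEedKO estimates at 8 weeks turned below 0 for H2-K1 (-0.33), H2-D1 (-0.027), B2m (-0.47), Tap1 (-0.66), Tap2 (-0.39), Tapbp (-0.20), Psmb8 (-0.42), Psmb9 (-0.18), Psmb10 (-1.04) and Nlrc5 (-0.75). In βEedKO at 25 over 8 weeks they turned above 0 for Tap1 (0.84), Tap2 (0.29), Psmb8 (0.83) and Psmb9 (0.19). The part of these libraries was given by construction, and why they stand apart was not tested.

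At 25 weeks 3 estimates near 0 changed sign in βEedKO over WT. Library size alone, which shifts the median of all genes from 0.03 to 0.27, gave Tap2 0.23, Tapbp 0.087 and Psmb9 0.14, so relative to all genes these stayed below. Psmb9 was at 0.0042 without a filter and 0.087 with the pooled control, and Tap2 at 0.078 with library size and block. Leaving out 1 library gave Tap2 -0.20 to 0.035, Tapbp -0.60 to 0.0048 and Psmb9 -0.22 to 0.081, and at 8 weeks Tapbp -0.062 to 0.71. For these the cause was not tested.

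The number of calls over all genes also moved between settings. In βEedKO over WT at 8 weeks they were 81, and 0 to 503 under the other settings (0 with the block), and at 25 weeks 1234, and 884 to 2649. Leaving out 1 library gave 18 to 135 and 392 to 1609. The difference between the ages had 37 calls, and 0 to 340 (2 with the block), WT at 25 over 8 weeks 0, and 0 to 139, βEedKO at 25 over 8 weeks 281, and 0 to 960, and HET over WT at 25 weeks 0, and 0 to 32. In HET over WT at 8 weeks there were 0, and 0 to 407, and 601 without WT replicate 1. With 2 or 3 libraries a group and this spread, differences of the size of these estimates were mostly not detectable.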

Other observations

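The 19 genes listed as regulators, transcription factors, summed to 1900 to 2660 CPM in the 4 libraries that stand apart. In the other 12 libraries they summed to 510 to 1190 CPM. Irf7, 1 of the 19, was among the 8 genes most like the members. Of the 19 regulators 0 were called in any of the 7 comparisons. Not all of them followed the class I genes in every library. Irf1, an interferon-induced activator of class I genes, had 259 and 278 CPM in the WT libraries that stand apart and 510 and 541 CPM in the βEedKO libraries, but also 246 to 327 CPM in HET at 8 weeks, where Tap1 had 14.5 to 16.5 CPM. It had 57.3 and 55.4 CPM in replicate 1 of WT and βEedKO at 8 weeks and 43.6 and 42.2 CPM in replicate 2 of both at 25 weeks. In these 4 libraries the 19 regulators summed to 510 to 612 CPM, and in the other 12 to 1030 to 2660 CPM. Socs3, an inhibitor of cytokine signalling, had 11.3 to 94.7 CPM in the same 4 libraries and 168 to 295 CPM in HET at 8 weeks, in WT replicates 3 and 4, both HET libraries and βEedKO replicate 3 at 25 weeks. In the 4 libraries high in interferon-induced genes it had 58.8 to 129 CPM. Low Irf1 was thus shared by WT and βEedKO in replicate 1 at 8 weeks and in replicate 2 at 25 weeks, but not by the HET libraries of those numbers or by the other same-numbered pairs, and the cause was not tested.

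Jak2, a kinase of the interferon γ receptor, had 185 to 222 CPM in the 4 libraries high in interferon-induced genes and 31.1 to 50.3 CPM in the others except βEedKO replicate 3 at 25 weeks, at 88.8 CPM. That library also had the most Nlrc5 of the 25-week libraries (27 CPM), and the most Ifit1 (24.4 CPM), while its Tap1 was at 29.3 CPM. Its NK and cytotoxic markers summed to 10.3 CPM, against 0.0774 to 3.2 CPM in the other 25-week libraries.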
